A study of Rattus norvegicus with 4 samples.

Results

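Astrocytes take up the potassium and glutamate that active neurons release and move water with them, and 9 genes that carry out this work were followed on rat arrays: Aqp4, Mlc1, Kcnj10, Gja1, Gjb6, Slc1a2, Slc1a3, Glul and Hepacam. They were chosen by name, and their probes were found through the accession printed for each probe in the scanner files, matched to the reference table of rat genes. This gave 12 of the 30367 probes on the array and 8 of the 9 genes. No probe had an accession that mapped to Hepacam, so its level was not analysed here. All 12 probes passed the filter on dim probes, and all were well above background in both channels on 4 of 4 arrays. After 1 probe was taken per gene, the 8 genes stood among 22821 genes tested.

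RNA came from the spinal dorsal horn, the part of the cord that receives sensory input, of male rats aged 6 weeks, collected on day 10. The 2 groups were rats given oxaliplatin, a platinum drug used against cancer whose side effects include painful neuropathy (2 arrays), and rats given vehicle (2 arrays). On each 2-colour array, per the labels, the Cy5 dye marked RNA of an oxaliplatin or vehicle rat sample and the Cy3 dye RNA of untreated male rats of the same age. Dyes were never swapped, so dye and RNA source cannot be told apart, and each group lay on a slide of its own, so slide and group cannot be told apart either. The sources used here do not give the number of rats behind an array, the dose or the strain. The labels name the arrays biological replicates. The p-values rest only on the spread between arrays of the same group, pooled over the 2 groups. Each gene's spread was also drawn toward that of all genes (limma).

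At the end-feet that astrocytes place on blood vessels, the water channel Aqp4 lets water pass, and Kcnj10 (Kir4.1), an inward rectifier, carries potassium into the cell. Mlc1 and its partner Hepacam are membrane proteins needed for volume regulation in astrocytes. Gja1 (connexin 43) and Gjb6 (connexin 30) form the gap junctions that join astrocytes into a network through which potassium and metabolites spread. Slc1a2 (GLT-1) and Slc1a3 (GLAST) are the glutamate transporters that clear the synaptic cleft, and Glul, glutamine synthetase, turns the captured glutamate into glutamine. In the rodent spinal cord several of these proteins have been studied for their part in pain after nerve damage.

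The labelled tissue was first set against marker genes. On all 4 arrays, the Cy5 channel was rich in transcripts of tissues other than the cord. The 7 markers of sensory ganglion neurons, whose cell bodies lie outside the cord, stood at 3.37 in the log2 Cy5/Cy3 ratio (median), and all 7 were called higher in Cy5. The 6 forebrain markers had a median of 3.22. The 5 meningeal and connective tissue markers stood at 2.51. The 7 oligodendrocyte markers lay on the other side, with a median of -1.55 and all 7 called higher in Cy3, and the 3 measured Hox genes of the cord had a median of -1.19. The extract protocol names Cy3 labelling only. The direction of any difference in the rats is therefore not settled, and differences are given as values of the Cy5/Cy3 ratio and of each channel. In bulk RNA, fewer cells of a type and less RNA per cell cannot be told apart.

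Each array carried 62976 spots. Cy5 was well above background for 82.6% to 85.4% of probes. The Cy3 share was lowest on oxaliplatin replicate 2, at 76.8%, and elsewhere 83.1% to 88.1%. That array also had the dimmest Cy3, with a median of 283.5, where the remaining 3 had 494 to 564. Median scanned Cy3 was thus lower on both oxaliplatin arrays (494 and 283.5) than on the vehicle arrays (564 and 530). Median scanned Cy5 was higher on them (993 and 1023.5, against 913 and 948). The scanned signals given below are not adjusted for this, and the share of all genes apart as scanned was not computed. Ratios over all genes correlated between arrays by 0.754 to 0.928, and precision is limited by there being 4 arrays.

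The promoters of 2 of the genes are shown because these genes differed most between the groups in single channels, and in opposite directions: after normalisation Mlc1 stood lower on the oxaliplatin arrays in both channels and Glul higher in both, though neither passed the test. Each sequence is the 250 bases before an annotated start, 5′ to 3′ on the gene's strand, from RefSeq on build GRCr8. Capitals mark CCAAT, or ATTGG where it lies on the other strand. The regions are chr7:121946699-121946948 on the minus strand for Mlc1, and chr13:68519250-68519499 and chr13:68575816-68576065 on the plus strand for the 2 starts of Glul.
Mlc1: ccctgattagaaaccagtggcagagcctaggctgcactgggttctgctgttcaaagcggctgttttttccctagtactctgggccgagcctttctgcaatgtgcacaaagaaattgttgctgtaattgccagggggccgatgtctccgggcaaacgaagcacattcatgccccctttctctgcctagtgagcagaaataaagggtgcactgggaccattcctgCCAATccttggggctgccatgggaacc
Glul, upstream start: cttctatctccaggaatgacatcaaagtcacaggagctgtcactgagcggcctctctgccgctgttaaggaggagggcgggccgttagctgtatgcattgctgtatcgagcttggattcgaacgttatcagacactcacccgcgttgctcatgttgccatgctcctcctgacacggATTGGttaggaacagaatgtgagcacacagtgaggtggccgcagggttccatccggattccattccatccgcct
Glul, downstream start: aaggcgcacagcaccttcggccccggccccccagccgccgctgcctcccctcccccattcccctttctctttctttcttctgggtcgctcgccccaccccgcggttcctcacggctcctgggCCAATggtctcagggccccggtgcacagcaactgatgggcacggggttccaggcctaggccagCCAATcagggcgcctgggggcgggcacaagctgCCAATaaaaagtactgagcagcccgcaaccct

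The downstream start of Glul held 3 matches to CCAAT, its upstream start 1 and that of Mlc1 1. Over the 9 genes, RefSeq gave 16 such regions, some of which overlap. The regions of Hepacam share a single CCAAT, which is counted in each, and those of Slc1a3 nearly coincide. The shares over all promoters are per region, so the counts of genes have no share to be set against. CCAAT, searched on both strands, was in 7 of the 16 (5 of the 9 genes), and it was in 34.0% of the 33469 rat promoters of the same length. The GC box GGGCGG, also searched on both strands, was in 6 of the 16 (4 genes), against 30.5% of all promoters. These are matches of letters, not binding sites. The 5 genes with CCAAT in any region were Mlc1, Glul, Aqp4, Kcnj10 and Hepacam. Mlc1 and Glul were picked for their channel differences, and a link between CCAAT and those differences was not tested.

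The first comparison asked how the 8 genes were divided between the channels. Relative to other genes of their brightness, the water, potassium, gap junction and glutamine genes had more signal in Cy3, while the transporter Slc1a3 had more in Cy5. Ratios are log2 of Cy5 over Cy3 after background correction and loess, which sets each array's ratios to centre on 0 at every brightness, and their mean over the 4 arrays was tested against 0. Of the 8 genes, 7 passed at an adjusted p under 0.05 (limma, Benjamini-Hochberg over all genes), 6 of them higher in Cy3 and 1 higher in Cy5. Over all genes tested, 55.6% passed, 26.3% with Cy3 higher and 29.3% with Cy5 higher. The median ratio of the 8 genes was -0.55, against 0.029 over all genes. By array, that median was -0.53 and -0.34 on the oxaliplatin arrays, against -0.63 on both vehicle arrays. On the oxaliplatin arrays alone 5 of the 8 passed (Aqp4, Mlc1, Kcnj10, Slc1a3 and Glul), against 34.8% of all genes, and on the vehicle arrays alone 6 (Aqp4, Mlc1, Gja1, Gjb6, Slc1a3 and Glul), against 45.5%.

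The ratios of the brighter genes depended on loess. With median centring of each array in its place, the ratio of Aqp4 was -0.30 and that of Slc1a3 1.97, that of Gja1 turned to 0.29 (adjusted p = 0.0118, limma), and Gjb6 (-0.087) and Glul (-0.21) no longer passed. Then 5 of the 8 genes passed, 3 with Cy3 higher and 2 with Cy5 higher. Mlc1 at -1.03 and Kcnj10 at -0.62 were about where they had been.

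The second comparison asked which of the 8 genes differed between oxaliplatin and vehicle arrays. The ratio of Mlc1 was higher on the oxaliplatin arrays by 1.04, that of Gjb6 by 0.58, that of Glul by 0.45 and that of Aqp4 by 0.42 (log2), while the ratio of Kcnj10 was lower by 0.55. None of these passed the test over all genes: 0 of the 8 genes were called at an adjusted p under 0.05 (limma, Benjamini-Hochberg), as were 0% of all genes. At an unadjusted p under 0.05 there were 5 of 8, against 14.6% of all genes (3342). The oxaliplatin and vehicle ratios did not overlap for 7 of the 8, with 5 higher and 2 lower. Over all genes 49.2% were apart, 27.0% with higher ratios and 22.2% with lower ones. The median difference of the 8 was 0.31, against 0.0055 over all genes.

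**Figure D1:**
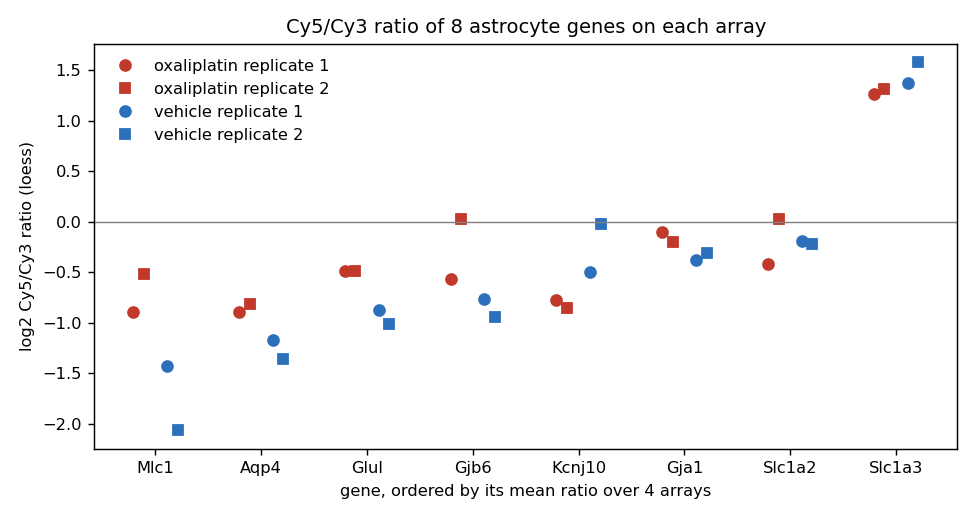
Log2 Cy5/Cy3 ratio after loess (vertical axis) of the 8 genes with a probe, ordered by their mean ratio over 4 arrays, with oxaliplatin arrays in red left of vehicle arrays in blue and 1 point per array. All genes but Slc1a3 lie at or below 0.03, Mlc1 runs lowest on vehicle replicate 2 at -2.06, and the red points lie above the blue ones for Mlc1, Aqp4, Glul, Gjb6 and Gja1 and below them for Kcnj10 and Slc1a3.

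Aqp4, the water channel of the end-feet, was among the brightest transcripts, with its probe A_44_P561166 above 98.2% of genes in mean signal. The scanned Cy5 signal was 68242 and 94420.2 on the oxaliplatin arrays, against 56194 and 41102 on the vehicle arrays. The scanned Cy3 signal was 39381 and 29449 on the oxaliplatin arrays, against 53552 and 38323 on the vehicle arrays. As scanned, the groups were apart in Cy5 and overlapped in Cy3. Its ratio was -0.89 and -0.82 on the oxaliplatin arrays, against -1.17 and -1.36 on the vehicle arrays. All 4 ratios were below 0, and both oxaliplatin arrays lay above both vehicle arrays. The difference was 0.42 ± 0.12 (SE, n = 2 arrays per group), with a 95% interval of 0.12 to 0.71 and an adjusted p of 0.296 (limma). As scanned, Cy5 was above Cy3 on every array, while after loess Cy3 was 2.08-fold higher (adjusted p = 2.9e-05, limma, in 4 of 4 arrays). With median centring the mean log2 ratio was -0.30.

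The other 2 probes of Aqp4 bear the same accession and gave a similar difference in ratio but other channel values. Probe A_64_P018751, which has 1 spot, had ratios of -1.14 and -1.02 on the oxaliplatin arrays, against -1.41 and -1.41 on the vehicle arrays, a difference of 0.33 ± 0.12 (SE). Probe A_64_P036063 had 0.12 and -0.25 on the oxaliplatin arrays, against -0.39 and -0.42 on the vehicle arrays, a difference of 0.34 ± 0.15 (SE), which was 0.16 without oxaliplatin replicate 1 and 0.53 without oxaliplatin replicate 2. On all 3 probes both oxaliplatin ratios thus lay above both vehicle ratios. The mean ratio was -1.06 and -1.25 for the first pair of probes and -0.23 for the last, and the gap between the brightest probe and the last ran from -1.01 to -0.57 over the 4 arrays.

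In the single channels the Aqp4 probes parted. After loess and quantile normalisation within a channel, the brightest probe was higher on the oxaliplatin arrays by 0.56 ± 0.26 in Cy5 (SE) and by 0.27 ± 0.22 in Cy3. Leaving out 1 array gave it 0.28 to 0.84 in Cy5 and 0.039 to 0.49 in Cy3. A_64_P018751 differed by -0.16 ± 0.11 in Cy5 and -0.49 ± 0.16 in Cy3, and A_64_P036063 by -0.24 ± 0.08 in Cy5 and -0.56 ± 0.18 in Cy3. Whether Aqp4 signal in a channel was higher or lower on the oxaliplatin arrays therefore depended on the probe, and no probe passed the test in either channel.

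**Figure D2:**
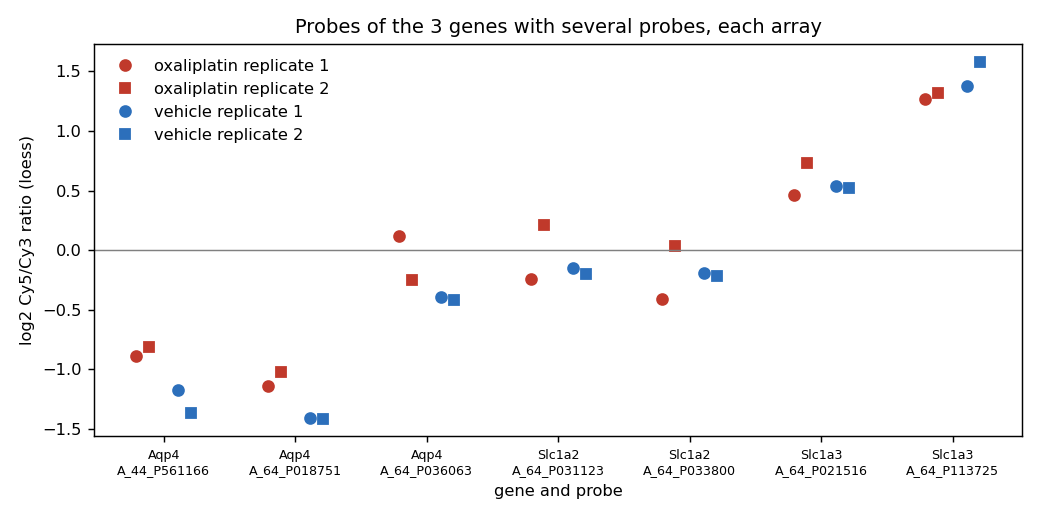
Log2 Cy5/Cy3 ratio after loess (vertical axis) of every probe of the 3 genes that have more than 1, with oxaliplatin arrays in red left of vehicle arrays in blue and 1 point per array. The 3 Aqp4 probes sit at mean ratios of -1.06, -1.25 and -0.23, each with the red points above the blue ones, and the 2 Slc1a3 probes sit at 0.56 and 1.39.

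Mlc1, the volume-regulating membrane protein, had the largest difference among the 8 genes, and the scanned signals showed it in Cy3. In Cy5, Mlc1 was scanned at 2851 and 2806 on the oxaliplatin arrays, against 2790 and 3623 on the vehicle arrays, where the groups overlapped. In Cy3, Mlc1 was scanned at 2556 and 1081 on the oxaliplatin arrays, against 4548 and 7872 on the vehicle arrays, where they did not. The array medians of scanned Cy3 were also lower on the oxaliplatin arrays (494 and 283.5, against 564 and 530). Per the labels, Cy3 marked RNA of untreated rats in both groups. The ratio was -0.89 and -0.52 on the oxaliplatin arrays, against -1.42 and -2.06 on the vehicle arrays, with vehicle replicate 2 lowest. The difference was 1.04 ± 0.23 (SE, n = 2 arrays per group; 95% interval 0.49 to 1.59; adjusted p = 0.294, limma). Without oxaliplatin replicate 1 it was 1.23 and was called (adjusted p = 0.0419, limma), as were 937 of all 22821 genes. Leaving out any other array gave 0.72 to 1.36 and no call. After normalisation within a channel, Mlc1 stood at -1.36 ± 0.31 in Cy3, oxaliplatin minus vehicle (adjusted p = 0.164, limma) and by -0.31 ± 0.11 in Cy5 (adjusted p = 0.231, limma), below the vehicle arrays in both. Without vehicle replicate 1 both passed, at -1.78 in Cy3 and -0.43 in Cy5 (adjusted p = 0.0065 and 0.0315, limma), in a setting where 2058 of all 22821 genes passed in Cy3 and 5773 in Cy5. After loess, Cy3 was 2.34-fold higher than Cy5 over all arrays (adjusted p = 2.1e-04, limma).

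Kcnj10, the Kir4.1 potassium channel, was dim on these arrays, at the 29.1 percentile of mean signal. In Cy5, Kcnj10 was scanned at 225 and 246 on the oxaliplatin arrays, against 261 and 250 on the vehicle arrays. In Cy3, Kcnj10 was scanned at 240 and 169 on the oxaliplatin arrays, against 236 and 149 on the vehicle arrays. As scanned, Cy5 was slightly lower on both oxaliplatin arrays and Cy3 overlapped. The ratio was -0.77 and -0.85 on the oxaliplatin arrays, against -0.50 and -0.02 on the vehicle arrays. It was the gene with the clearest difference in the downward direction, -0.55 ± 0.17 (SE; 95% interval -0.96 to -0.14; adjusted p = 0.300, limma), and -0.31 without vehicle replicate 2. In single channels it differed by -0.083 ± 0.074 in Cy5 and by 0.49 ± 0.20 in Cy3. After loess, Cy3 was 1.45-fold higher than Cy5 over all arrays (adjusted p = 0.0021, limma).

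Gja1, connexin 43, the main gap junction protein of astrocytes, was printed 10 times on the array, and its spots agreed within an SD of 0.027 to 0.081 in the log2 ratio. In Cy5, Gja1 was scanned at 35089 and 36846 on the oxaliplatin arrays, against 29535 and 28658 on the vehicle arrays. In Cy3, Gja1 was scanned at 13857 and 8974 on the oxaliplatin arrays, against 18729 and 14748 on the vehicle arrays. The scanned signal was thus higher on the oxaliplatin arrays in Cy5 and lower in Cy3, as were the array medians over all probes. The ratio was -0.10 and -0.20 on the oxaliplatin arrays, against -0.38 and -0.31 on the vehicle arrays, without overlap. The difference of 0.20 ± 0.12 (SE; 95% interval -0.08 to 0.47; adjusted p = 0.464, limma) was small, and its interval reached below 0. After normalisation within a channel it was 0.11 ± 0.09 in Cy5 and -0.063 ± 0.16 in Cy3. As scanned, Cy5 was above Cy3 on every array, while after loess Cy3 was 1.19-fold higher (adjusted p = 0.0105, limma), a call lost without vehicle replicate 1 (-0.23, adjusted p = 0.0776, limma). With median centring the mean log2 ratio turned to 0.29 and passed with Cy5 higher (adjusted p = 0.0118, limma).

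Gjb6, connexin 30, which astrocytes make beside connexin 43, was also printed 10 times, with an SD between spots of 0.026 to 0.076. In Cy5, Gjb6 was scanned at 21174 and 21246 on the oxaliplatin arrays, against 18424 and 24690 on the vehicle arrays. In Cy3, Gjb6 was scanned at 12305 and 4828 on the oxaliplatin arrays, against 16036 and 19403 on the vehicle arrays. As scanned, only Cy3 held the groups apart, in the direction of the array medians, with oxaliplatin replicate 2 lowest. The ratio was -0.57 and 0.03 on the oxaliplatin arrays, against -0.76 and -0.94 on the vehicle arrays. The difference was 0.58 ± 0.20 (SE; 95% interval 0.10 to 1.07; adjusted p = 0.308, limma). It rested on oxaliplatin replicate 2, since it was 0.28 without that array and 0.88 without oxaliplatin replicate 1, where it was called (adjusted p = 0.0359, limma) with 937 of all genes. In single channels Gjb6 stood at -0.74 ± 0.27 in Cy3 and -0.18 ± 0.10 in Cy5, oxaliplatin minus vehicle. Without vehicle replicate 1 the Cy5 value was -0.29 and passed (adjusted p = 0.0483, limma), along with 5773 of all genes. The spread between arrays of 1 group, 0.60 for the oxaliplatin ratios, was far above the spread between spots.

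Slc1a2, the GLT-1 glutamate transporter, had overlapping groups in the ratio. In Cy5, Slc1a2 was scanned at 16742 and 20126 on the oxaliplatin arrays, against 15066 and 16585 on the vehicle arrays. In Cy3, Slc1a2 was scanned at 9114 and 4599 on the oxaliplatin arrays, against 9296 and 8847 on the vehicle arrays. As scanned, both oxaliplatin arrays were above both vehicle arrays in Cy5, and Cy3 overlapped. The ratio was -0.41 and 0.03 on the oxaliplatin arrays, against -0.19 and -0.22 on the vehicle arrays, so that both vehicle arrays lay between the oxaliplatin arrays. The difference was 0.015 ± 0.16 (SE; adjusted p = 0.978, limma) with a 95% interval of -0.38 to 0.41, which leaves room for a change of about that size in either direction. The second probe, A_64_P031123, bears another accession of the gene and had -0.24 and 0.21 on the oxaliplatin arrays, against -0.15 and -0.20 on the vehicle arrays, a difference of 0.16 ± 0.17 (SE). It repeated the order of the 4 arrays. Neither probe's mean ratio passed, at -0.20 (adjusted p = 0.0803) and -0.094 (adjusted p = 0.367, limma). Without oxaliplatin replicate 2, the mean ratios were -0.31 and -0.21. With median centring in place of loess they were 0.20 and 0.27, and that of A_64_P031123 passed with Cy5 higher (adjusted p = 0.0389, limma).

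Slc1a3, the GLAST glutamate transporter, was the one gene of the 8 whose mean loess ratio lay above 0. In Cy5, Slc1a3 was scanned at 73514 and 75587 on the oxaliplatin arrays, against 60751 and 63867 on the vehicle arrays. In Cy3, Slc1a3 was scanned at 10743 and 6249 on the oxaliplatin arrays, against 11156 and 8614 on the vehicle arrays. The ratio was 1.27 and 1.32 on the oxaliplatin arrays, against 1.38 and 1.58 on the vehicle arrays, so Cy5 was 2.61-fold higher over all arrays after loess (adjusted p = 9.7e-06, limma, in 4 of 4 arrays). The groups did not overlap, but the difference of -0.19 ± 0.12 (SE; 95% interval -0.48 to 0.11; adjusted p = 0.514, limma) had an interval that reached above 0. After normalisation within a channel it was 0.064 ± 0.070 in Cy5 and 0.26 ± 0.17 in Cy3. Without vehicle replicate 2 the difference in ratio was -0.087. The second probe, A_64_P021516, was also higher in Cy5, with ratios of 0.47 and 0.73 on the oxaliplatin arrays, against 0.54 and 0.53 on the vehicle arrays. Its mean of 0.56 (adjusted p = 6.1e-04, limma) lay 0.59 to 1.05 below the first probe on the 4 arrays. Its difference of 0.066 ± 0.13 had the opposite sign to that of the first probe. So had its channel differences, -0.21 ± 0.080 in Cy5 and -0.24 ± 0.16 in Cy3, with the groups apart in both.

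Glul, glutamine synthetase, had a ratio that lay higher on both oxaliplatin arrays. In Cy5, Glul was scanned at 33245 and 37123 on the oxaliplatin arrays, against 21647 and 11178 on the vehicle arrays. In Cy3, Glul was scanned at 16910 and 10860 on the oxaliplatin arrays, against 19639 and 10537 on the vehicle arrays. As scanned, the groups were apart in Cy5 and overlapped in Cy3, and vehicle replicate 2 was lowest in both dyes. The ratio was -0.48 and -0.49 on the oxaliplatin arrays, against -0.87 and -1.01 on the vehicle arrays, with the oxaliplatin arrays nearly equal and above both vehicle arrays. The difference was 0.45 ± 0.12 (SE, n = 2 arrays per group; 95% interval 0.17 to 0.73; adjusted p = 0.294, limma), and 0.38 to 0.52 with any 1 array left out. As scanned, Cy5 was above Cy3 on every array, while after loess Cy3 was 1.64-fold higher (adjusted p = 1.2e-04, limma). That call was lost with median centring (-0.21, adjusted p = 0.0507, limma).

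The Glul level within Cy5 was 14.19 and 14.30 (log2) on the oxaliplatin arrays, against 13.84 and 12.81 on the vehicle arrays, a difference of 0.92 ± 0.36 (SE; adjusted p = 0.259, limma). Within Cy3 it was 14.67 and 14.80 on the oxaliplatin arrays, against 14.67 and 13.80 on the vehicle arrays, a difference of 0.51 ± 0.29 (SE; adjusted p = 0.363, limma). The vehicle arrays were 1.03 apart in Cy5 and 0.87 apart in Cy3, and both channels shared the low value of vehicle replicate 2. Without vehicle replicate 1 the differences were 1.43 in Cy5 and 0.94 in Cy3, and both passed (adjusted p = 0.0047 and 0.0350, limma), as did 5773 of all 22821 genes in Cy5 and 2058 in Cy3. Without vehicle replicate 2 they were 0.40 and 0.070 and neither passed. The ratio, in which a shift shared by both channels cancels, was steadier than either channel.

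Set side by side in single channels, the 8 genes did not move as 1 block. In Cy5 the groups were apart for 7 of the 8, 4 of them higher on the oxaliplatin arrays (Aqp4, Gja1, Slc1a3 and Glul) and 3 lower (Mlc1, Kcnj10 and Gjb6). Over all genes 60.0% were apart in Cy5, 28.1% higher and 32.0% lower. In Cy3 the groups were apart for 5 of the 8, with Kcnj10, Slc1a3 and Glul higher and Mlc1 and Gjb6 lower, against 58.4% of all genes (31.3% lower). In neither channel was any of the 8 genes called, nor any of all genes (0% in both; 20.4% in Cy5 and 21.1% in Cy3 at an unadjusted p under 0.05, limma). The median difference over the 8 genes was 0.035 in Cy5 and 0.14 in Cy3. Mlc1 and Gjb6 were lower in both channels and more so in Cy3, while Glul was higher in both and more so in Cy5. Aqp4 had positive differences in both channels on its brightest probe and negative ones on its other 2 probes. For Slc1a3, likewise, the second probe had the opposite sign in both channels.

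**Figure D3:**
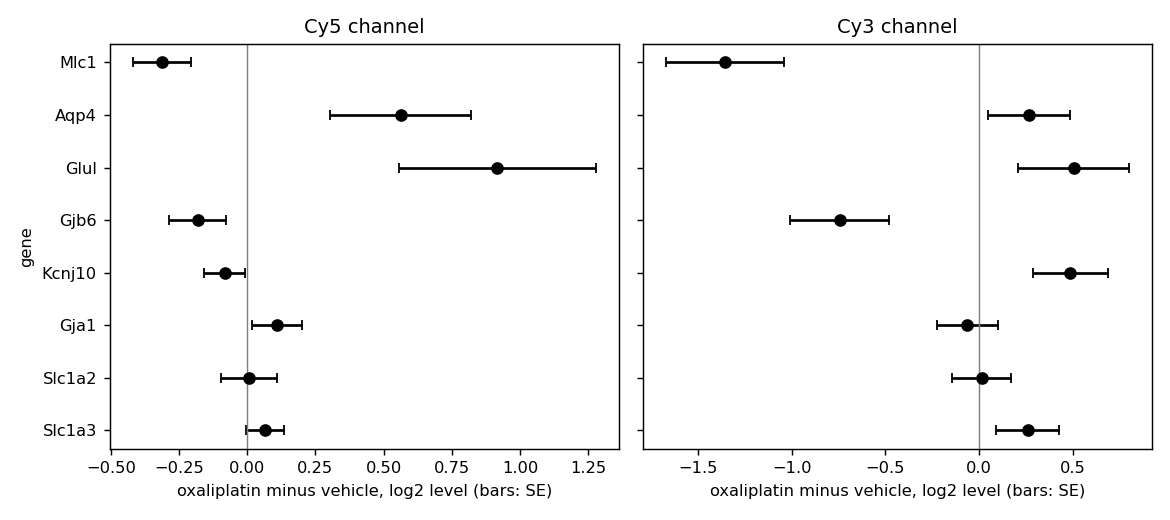
Oxaliplatin minus vehicle difference in log2 level (horizontal axes) of the 8 genes in the Cy5 channel on the left and the Cy3 channel on the right, with points for the fitted difference and bars for 1 SE over 2 arrays per group. Glul and the brightest probe of Aqp4 lie to the right of 0 in both panels, Mlc1 and Gjb6 to the left in both, and Mlc1 reaches -1.36 in Cy3.

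By their mean ratio over the 4 arrays the genes ran from Mlc1 (-1.22) through Aqp4 (-1.06), Glul (-0.71), Gjb6 (-0.56), Kcnj10 (-0.53), Gja1 (-0.25) and Slc1a2 (-0.20) to Slc1a3 (1.39). Neighbours in this order were told apart where their gap was larger than its SD over arrays and had the same sign on 4 of 4. That held for Glul over Aqp4, with a gap of 0.35 (SD 0.043) on the brightest Aqp4 probe, and for Slc1a3 over Slc1a2, with a gap of 1.58 (SD 0.22). The order of that first pair depended on the probe, since Aqp4 probe A_64_P036063 (-0.23) lay above Glul on 4 of 4 arrays. The other 5 pairs of neighbours did not differ beyond their spread. Kcnj10 and Gjb6, with almost the same mean, were between -0.88 and 0.92 apart on single arrays.

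Genes that work with the 8 were read on the same arrays. Of the complex that anchors Aqp4 at the end-feet, 6 genes were measured and 0 were called. Their median difference was -0.050, with 3 higher and 3 lower, against 0.0055 over all genes. Dmd, dystrophin, had ratios of -0.03 and -0.12 on the oxaliplatin arrays, against 0.18 and 0.51 on the vehicle arrays, a difference of -0.42 ± 0.15 (SE; adjusted p = 0.308, limma). Sntb1, a syntrophin, differed by -0.11 and Agrn, agrin, a matrix protein of the end-feet, by -0.21. Over all arrays 0 of the 6 were called higher in Cy3, against 26.3% of all genes. Dag1 (mean ratio 0.71) was the 1 called higher in Cy5, against 29.3% of all genes. The median mean ratio of the complex was 0.11.

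Of 11 genes for potassium, chloride and volume handling, 6 lay higher and 5 lower in ratio (median difference 0.085), and 0 were called. The groups were apart for 6 with higher and 2 with lower ratios, against 27.0% and 22.2% of all genes. Fxyd1, phospholemman, a regulator of the sodium pump, had ratios of 0.40 and 0.36 on the oxaliplatin arrays, against -0.25 and -0.06 on the vehicle arrays, a difference of 0.53 ± 0.12 (SE; adjusted p = 0.294, limma). Atp1b2, a beta subunit of the pump, differed by 0.33. The leak channel Kcnk2 (TREK-1) differed by -0.57. Kcnj16 (Kir5.1), which pairs with Kcnj10 in 1 channel, differed by -0.22 and had a higher Cy3 signal over all arrays (mean ratio -0.99), as Kcnj10 did.

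Of 7 other connexins and pannexins, 4 had higher ratios and 3 lower (median 0.014, 0 called). Gjb1 (connexin 32), which oligodendrocytes use to couple with astrocytes, differed by 0.58. It had more signal in Cy3, with a mean ratio of -1.46. Gjb2 (connexin 26) differed by -0.25 with a mean ratio of 0.99, and the neuronal connexin Gjd2 differed by -0.40.

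Of 13 genes for glutamate, glutamine and GABA handling, 8 lay higher and 5 lower in ratio (median difference 0.24), and 0 were called. The glycine transporter Slc6a9 (GlyT1), an astrocyte gene, had ratios of -1.05 and -0.96 on the oxaliplatin arrays, against -1.39 and -1.57 on the vehicle arrays, a difference of 0.48 ± 0.12 (SE; adjusted p = 0.294, limma). The glutamate receptor Grm3 differed by 0.31. The glutamine carrier Slc38a5 differed by -0.43. Slc1a1, the glutamate transporter of neurons, differed by -0.061 with overlapping groups, as Slc1a2 did.

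Other astrocyte markers had higher ratios on the oxaliplatin arrays in 15 of 15 cases, with a median difference of 0.51 and 13 with the groups apart and higher, against 27.0% of all genes, and 0 were called. Apoe, the lipid carrier of astrocytes, had ratios of 0.41 and 0.54 on the oxaliplatin arrays, against -0.14 and -0.45 on the vehicle arrays, a difference of 0.77 ± 0.15 (SE; adjusted p = 0.294, limma). Clu, clusterin, differed by 0.68, Agt, angiotensinogen, by 0.54 and the neurotensin receptor Ntsr2 by 1.43. In single channels their median difference was -0.020 in Cy5 and -0.46 in Cy3. The median of the 8 genes in Cy3 was 0.14, with 1 probe per gene, and these medians were not tested against each other. That value depended on the probes used. In Cy3 the unused probes stood at -0.49 and -0.56 for Aqp4, -0.19 for Slc1a2 and -0.24 for Slc1a3.

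Oligodendrocyte markers also lay higher in ratio. Of 7, all measured, 6 had higher ratios, with a median difference of 0.44 and medians of -0.21 in Cy5 and -0.63 in Cy3. Their median ratio was -1.37 and -1.04 on the oxaliplatin arrays, against -1.73 and -2.07 on the vehicle arrays. No defining marker was lacking, and Mag, a myelin adhesion protein, differed by 0.72 and Mbp, myelin basic protein, by 0.24. Neuron markers had a median difference of 0.050 (6 measured), microglia markers -0.028 (7) and endothelial markers 0.015 (6). Meningeal and connective tissue markers had lower ratios in 5 of 5 cases, with a median of -0.32. The part of tissue makeup in the differences of the 8 genes was not tested.

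**Figure D4:**
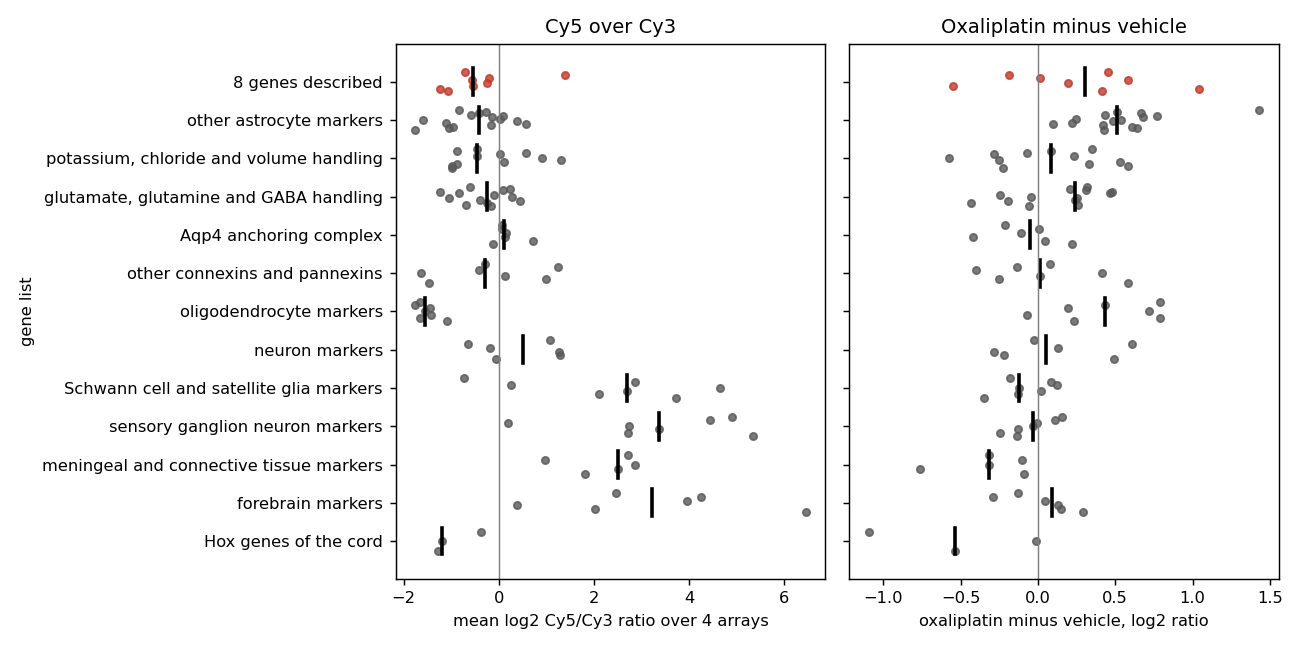
Mean log2 Cy5/Cy3 ratio over the 4 arrays (left) and oxaliplatin minus vehicle difference in that ratio (right) of each gene in the lists named on the vertical axis, with 1 point per gene, the 8 genes described in red, and a black bar at each list's median. On the left panel, the medians of ganglion, forebrain, Schwann cell and connective tissue markers lie far to the right (2.51 to 3.37). Among these markers Fabp7 lies at -0.73, and Mrgprd (0.20), Drp2 (0.26) and Tbr1 (0.38) lie near 0. On the right panel the 15 other astrocyte markers lie above 0 with a median of 0.51, against 0.31 for the 8 genes.

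Genes near the median profile of the 8 were sought over the 8 channel signals (4 arrays, 2 dyes). Each gene was centred on its own mean, and nearness was Euclidean distance to that profile. Nearest were Lmbrd1 (distance 0.214), Rab9b (0.219), Kazald1 (0.223), Epor (0.225) and Tmem141 (0.232). Among the 8 genes themselves, Slc1a2 (0.353) and Gja1 (0.354) lay closest to their shared median, and Mlc1 (2.00) and Slc1a3 (2.53) farthest. The median profile thus lay nearer to the transporter GLT-1 and connexin 43 than to Mlc1 and Slc1a3, which had the lowest and the highest mean ratio. All 8 genes entered that median, and each of them lay farther from it than the genes named as nearest.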

How the data were processed

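Total RNA of rat dorsal horn was hybridised to 4 Agilent 2-colour arrays, and groups and replicate numbers came from the sample titles. Per the file headers, each scanner file gives spot and local background intensity per dye (median pixels, Feature Extraction 10.7.1.1; the submitters' processing notes name 8.5.1.1). Processed intensity and a log10 ratio, Cy5 over Cy3, from the scanner software stand beside them, per the file headers. The authors' deposited value table holds log10 ratios that lay within 0.0050 of these, with medians of -0.00277 and 0 for oxaliplatin and -0.00492 and -0.00316 for vehicle. Flags of the scanner software, other values than signals per the file headers, mark outliers and spots well above background. Columns left unmapped numbered 0.

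In limma 3.58.1 (R 4.3.3), median signals were corrected by normexp (offset 50) and log2 ratios by loess. Control spots (4259 per array) and outlier spots (1730 on any array) were left out, and replicate spots were averaged. Of 30358 probes with a value on every array, 26002 had Cy5 well above background on at least 2 arrays. The probe with the highest mean signal stood for its gene (22821 genes, 13940 with a symbol). Groups were compared by lmFit and eBayes (two-sided; 2 residual and 4.74 prior degrees of freedom), adjusted by Benjamini-Hochberg at 0.05. The fit was also run on simulated data, with spreads drawn from the fit's own prior, independent arrays and no slide effect. That run cannot show how the fit behaves where slide and group coincide, as they do here. Alternatives covered background correction, normalisation, the filter on dim probes, the probe of a gene, the replicate number as a block and each array left out. Promoters came from RefSeq, and 9 of 9 genes matched.

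The genes and the lists were chosen with earlier results of these data known. Named genes were all members, the 4 of each pathway list with the smallest p, the 3 of each marker list with the highest signal, and the 5 nearest in profile. Kcnj16 and Slc1a1 were named after their values were seen. Some genes picked by this rule are not reported here. Of the lists, Dtna, Gjc3, Rbfox3, Emx1 and 6 Hox genes had no matching probe. Markers of Schwann cells and satellite glia had a median ratio of 2.69, though Fabp7 among them was at -0.73, and those of ependyma -0.41.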

Additional observations from a re-analysis of the deposited data

How the results depend on the processing

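With 2 arrays per group, counts of calls depended on single arrays. The number of genes called between oxaliplatin and vehicle was 0 (3342 at an unadjusted p under 0.05, limma), 2 to 937 with 1 array left out, and 3 with the replicate block. A lone array was then assumed to vary like those of the other group. Deviations of same-numbered arrays correlated by -0.22 in the ratio, and numbers crossed in the vehicle group, added after seeing the data, gave 537 genes called. Of the 8 genes, 0 were called, 0 to 2 with 1 array left out (Mlc1 and Gjb6 without oxaliplatin replicate 1), 0 with the replicate block and 1 with crossed numbers. Cy5 calls ran from 0 to 5773 and Cy3 calls from 0 to 2058 with 1 array left out. Without loess 18 genes were called in Cy3. The median difference of the 8 was 0.43 with median centring and 0.21 with ratios scaled to equal spread, and their median ratio -0.15 with median centring. Signs turned as follows. With median centring, the ratio was 0.29 for Gja1, 0.20 for Slc1a2, 0.27 for its probe A_64_P031123 and 0.079 for Aqp4 probe A_64_P036063. Scaled ratios gave Slc1a3 a difference of 0.029. Without oxaliplatin replicate 2, differences were -0.21 for Slc1a2, -0.066 for its probe A_64_P031123 and -0.065 for Slc1a3 probe A_64_P021516, and leaving out 1 array gave ranges of -0.21 to 0.24, -0.066 to 0.38 and -0.065 to 0.20. Leaving out an array turned the mean ratio of probe A_64_P031123 to 0.018. It also gave Slc1a2 between -0.10 and 0.12 in Cy5 and between -0.10 and 0.13 in Cy3, and Gja1 between -0.18 and 0.050 in Cy3. Without vehicle replicate 2 Slc1a2 was at -0.0087 in Cy5, and without oxaliplatin replicate 1 Gja1 was at 0.0062 in Cy3. With Aquantile Slc1a2 was at -0.0028 in Cy3. Where not stated, the cause was not tested. Kcnj10, the dimmest gene, had a mean ratio of -0.91 with the scanner software's log ratio, against -0.53.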
